A study of Mus musculus with 6 samples.

Results

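The secreted Wnt antagonists are proteins that fibroblasts and other cells release and that hold back Wnt signals outside the cell. The 9 genes described here are Sfrp1, Sfrp2, Frzb, Sfrp4 and Sfrp5, which encode secreted frizzled-related proteins, Dkk1, Dkk2 and Dkk3, which encode Dickkopf proteins, and Wif1, which encodes Wnt inhibitory factor. They are 9 of the 18193 genes that the array's annotation names alone on a probe set. Their probe sets were taken as all those whose only annotated symbol is 1 of these names, which gave 17 of the 45037 probe sets on the array without controls. Sfrp1 has 5 of them, Frzb, Sfrp5, Dkk1 and Dkk3 have 2 each, and Sfrp2, Sfrp4, Dkk2 and Wif1 have 1 each. Of the 17, 14 probe sets of 8 genes were bright enough to be tested, and Wif1 was not among them. A level is the deposited signal, on a linear scale, and a log2 difference is one of log2(signal + 16). Probe sets in the dimmest 40% by mean signal (under 39.4) were not tested, and a probe set is called at an adjusted p under 0.05.

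Total RNA came from mouse embryonic fibroblasts, cells cultured from whole embryos, of genotype Zmpste24-/- (3 cultures) and Zmpste24+/+ (wild type, WT, 3 cultures), with 1 Affymetrix Mouse Genome 430 2.0 array per culture. All 6 cultures were of strain C57BL/6, were prepared from E13.5 embryos and were harvested at passage 3 from medium with fetal calf serum. Zmpste24 encodes the protease that matures prelamin A, and the comparison asks which transcripts differ without it in early passages. Cultures carry the numbers 1 to 3 within a genotype, and the protocol mentions 3 pairs, without saying which animals or how many embryos a culture came from. The p-values therefore measure the spread between these cultures, which may be technical. In fits that include the culture number, they measure the spread that is left once number is fitted.

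The signal of Zmpste24 was 365, 182 and 226 in Zmpste24-/- cultures 1, 2 and 3, against 3849.9, 2249 and 2043 in WT cultures 1, 2 and 3. Limma called this difference in the fit blocked by replicate (adjusted p = 4.0e-05) and not in the unblocked fit (0.987). The arrays numbered 1 stood apart in both genotypes: across probe sets they correlated with each other at r = 0.984 on the log2 scale and with the other 4 arrays at 0.953 to 0.959, where those 4 correlated among themselves at 0.980 to 0.984. By Xist and the Y-linked genes, cultures 2 and 3 differed in sex between the genotypes, and cultures 1 did not: Xist had 6669, 4766 and 6660.1 in Zmpste24-/- cultures, against 5324, 69.3 and 43.7 in WT cultures. The Y-linked gene Eif2s3y had 531 and 1341 in WT cultures 2 and 3 and at most 15.7 elsewhere. In numbers 2 and 3 genotype and sex therefore cannot be told apart. All 10 markers of a fibroblast list were bright enough by the mean of the 6 arrays to be tested, against 11 of 11 macrophage markers and 2 of 6 skeletal muscle markers. The macrophage markers C1qa, C1qc and Ptprc averaged under 39.4 outside number 1, so only number 1 brought them past the filter.

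Wnt proteins bind Frizzled receptors together with the co-receptors Lrp5 and Lrp6, and this stabilises beta-catenin, which then acts with TCF/LEF factors on target genes such as Axin2. Secreted frizzled-related proteins carry a domain like the Wnt-binding part of the Frizzled receptors, and they and Wif1 bind Wnt proteins directly. Dkk1 and Dkk2 instead bind Lrp5 and Lrp6, with Kremen proteins as partners. Dkk3 is a divergent member of its family whose part in Wnt signalling is less settled. In connective tissue and bone these genes are known as local brakes on Wnt signals.

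Over all 6 arrays, neither the unblocked nor the blocked fits called an antagonist between the genotypes. The gene with the widest gap on the log2 scale was Sfrp2, at 1.06, with 2.19 times the WT mean signal in Zmpste24-/- cultures. By the ratio of mean signals Sfrp4 was higher, at 2.94, with 2237 in Zmpste24-/- culture 1 against 72.0 and 121 in Zmpste24-/- cultures 2 and 3. Sfrp1, Frzb, Sfrp4, Dkk2 and Dkk3 differed far more between culture number 1 and the other cultures than between the genotypes. In limma without a block (two-sided, as all limma p here), 0 of the 14 tested probe sets passed an adjusted p under 0.05, where 0% of all 27022 tested probe sets did. With the replicate number as a block it was again 0 of 14, against 0.0185% of all, and with number 1 as one level of that block and numbers 2 and 3 as the other, 0 of 14, against 0.0407%. At an unadjusted p under 0.05 there was 1 of 14 (Sfrp2) unblocked, against 1.29% of all, and 3 of 14 (Sfrp2, Sfrp1 and Dkk2) in the blocked fit, against 8.99% of all. By the brightest probe set of each of the 8 genes, the median log2 difference was 0.27, and it was -0.00484 over all tested probe sets.

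Sfrp2, whose protein is a Wnt modulator abundant in mesenchymal tissue, had signals of 675, 1494 and 1738 in Zmpste24-/- cultures 1, 2 and 3, against 389, 581 and 818 in WT cultures 1, 2 and 3 (probe set 1448201_at). Each Zmpste24-/- culture was above the WT culture of its number, by 1.74-fold, 2.57-fold and 2.12-fold in numbers 1, 2 and 3, but the groups overlapped, because Zmpste24-/- culture 1 lay below WT culture 3. The means were 1303 ± 557 in Zmpste24-/- and 596 ± 215 in WT (SD, n = 3 each). On the log2 scale Zmpste24-/- lay 1.06 above WT, with an SE of 0.42 in the unblocked fit and 0.12 in the fit with the replicate block. Limma's adjusted p was 1 in the first and 0.0750 in the second. With replicates 2 and 3 alone the difference was 1.21 and limma called it (adjusted p = 0.0464), as it did 0.0740% of all probe sets. In those numbers the embryos also differed in sex, and in number 1, where they did not, the log2 difference was 0.77. Over the alternatives run, the adjusted p of Sfrp2 lay between 0.0464 and 1, and the difference between 0.79 without WT replicate 1 and 1.47 without Zmpste24-/- replicate 1.

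The promoter windows of Sfrp2, Frzb and Dkk2 are shown because these genes are the ones with the widest genotype gap (Sfrp2) or a shared pattern over culture number (Frzb and Dkk2) for which RefSeq windows were used. Each runs from 250 bases before to 50 bases after the transcript start that the RefSeq promoter table uses, in build GRCm38.p6, 5′ to 3′ on the strand of the gene. For Sfrp2 and Dkk2 that start lies inside the outermost bounds RefSeq gives the gene, and for Frzb it is the bound itself. Capitals mark GC boxes (GGGCGG) and TATA boxes (TATAAA), read on both strands.
Sfrp2, chr3:83766071-83766370, plus strand: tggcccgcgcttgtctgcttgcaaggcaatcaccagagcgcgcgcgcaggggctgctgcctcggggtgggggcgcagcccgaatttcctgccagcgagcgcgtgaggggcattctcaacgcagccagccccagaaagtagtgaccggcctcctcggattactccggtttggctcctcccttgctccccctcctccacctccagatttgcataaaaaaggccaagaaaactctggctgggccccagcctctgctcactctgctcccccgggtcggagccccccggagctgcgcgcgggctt
Frzb, chr2:80447347-80447646, minus strand: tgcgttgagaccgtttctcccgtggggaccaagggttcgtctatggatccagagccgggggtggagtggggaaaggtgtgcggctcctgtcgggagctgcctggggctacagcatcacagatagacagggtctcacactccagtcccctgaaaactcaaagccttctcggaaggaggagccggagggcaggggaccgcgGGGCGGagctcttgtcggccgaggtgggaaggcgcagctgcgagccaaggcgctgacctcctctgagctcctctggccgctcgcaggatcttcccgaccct
Dkk2, chr3:132085042-132085341, plus strand: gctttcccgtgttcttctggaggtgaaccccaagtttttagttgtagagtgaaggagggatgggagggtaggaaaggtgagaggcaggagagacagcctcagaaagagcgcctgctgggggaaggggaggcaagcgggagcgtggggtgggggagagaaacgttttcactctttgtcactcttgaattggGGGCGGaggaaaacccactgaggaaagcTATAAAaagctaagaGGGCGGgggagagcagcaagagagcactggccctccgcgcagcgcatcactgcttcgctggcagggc
Windows of 6 of the 9 genes were matched by symbol, and none was matched for Sfrp1, Sfrp4 and Dkk3. The TCF/LEF motif CTTTGAT was in none of the 6, and in 3.73% of all 32851 windows. The TEAD motif GGAATG (14.7% of all windows) and the AP-1 motif TGANTCA (7.81%) were also in none of the 6. A GC box was in 4 of the 6 (Frzb, Dkk2, Wif1 and Sfrp5), against 35.7% of all, and a TATA box in 3 (Dkk1, Dkk2 and Wif1), against 13.6% of all. No motif contains another. The Sfrp2 window held none of the 5 motifs. The TATA box of Dkk2 begins 32 bases before the start used, and that of Dkk1 54 bases before it. The match in Wif1 lies 232 bases before the start, on the opposite strand.

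Sfrp1 encodes a secreted frizzled-related protein that binds Wnt proteins. Its brightest probe set (probe set 2, 1428136_at) had signals of 4755, 1052 and 1326 in Zmpste24-/- cultures 1, 2 and 3, against 3801, 962 and 966 in WT cultures 1, 2 and 3. Culture 1 was the highest in each genotype, and the genotypes overlapped. The log2 difference between the genotypes was 0.30 (SE 0.74), and Zmpste24-/- was higher in every pair, which limma did not call (adjusted p = 0.430 blocked by replicate). The other 4 probe sets of Sfrp1 had log2 differences of 0.34, 0.05, 0.03 and 0.21 (1416594_at, 1438620_x_at, 1448395_at and 1460187_at), and none of these 4 had 1 direction in all pairs. The suffix of 1438620_x_at marks probes that can also match other transcripts.

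Frzb, also known as Sfrp3, encodes a secreted protein of developing cartilage. Its brighter probe set (probe set 1, 1416658_at) had 709, 233 and 248 in Zmpste24-/- cultures 1, 2 and 3, against 543, 192 and 229.9 in WT cultures 1, 2 and 3. The groups overlapped, with Zmpste24-/- higher in every pair and a log2 difference of 0.25 (SE 0.54). The other probe set, 1448424_at, differed by 0.17 (SE 0.41) and was lower in Zmpste24-/- in number 3.

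Sfrp4 encodes a secreted frizzled-related protein that is known from bone. It had 2237, 72.0 and 121 in Zmpste24-/- cultures 1, 2 and 3, against 576, 129 and 123 in WT cultures 1, 2 and 3 (1451031_at). Zmpste24-/- culture 1 was thus the highest of all and Zmpste24-/- culture 2 the lowest, so that the pairs disagreed: the log2 difference was 1.93 in number 1, -0.72 in number 2 and -0.01 in number 3. Over all arrays it was 0.40 (SE 1.27), and without Zmpste24-/- replicate 1 it was -1.06. The difference between number 1 and the mean of numbers 2 and 3 in the genotype effect was 2.29 (SE 0.38), and limma's p was 2.0e-04 unadjusted and 0.175 adjusted, so it did not pass. In that test of the interaction, which was chosen after the data were seen, 0.0259% of all probe sets and 0 of the 14 of the antagonists passed. At an unadjusted p under 0.05 the interaction held for 1 of the 14, Sfrp4, against 4.59% of all. The genotypes matched in sex in number 1 and not in numbers 2 and 3, so the interaction cannot be told apart from sex.

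Sfrp5, whose product is known from adipose tissue, was dim. Its tested probe set 1436075_at had 36.0, 68.0 and 62.9 in Zmpste24-/- cultures 1, 2 and 3, against 45.8, 58.2 and 74.2 in WT cultures 1, 2 and 3. The log2 difference was -0.09 (SE 0.28). The other probe set, 1423023_at, lay below the filter with 43.7, 70.0 and 29.9 in Zmpste24-/- cultures, against 8.26, 46.2 and 7.40 in WT cultures. The probe sets of this gene therefore differed in direction.

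Wif1, which encodes a secreted protein that binds Wnt ligands, was below the filter on its only probe set, 1425425_a_at. It had 38.8, 6.60 and 15.3 in Zmpste24-/- cultures 1, 2 and 3, against 32.6, 17.8 and 8.27 in WT cultures 1, 2 and 3. Culture 1 was the highest in both genotypes. No test was made of it or of the other 2 probe sets below the filter, those of Sfrp5 and Dkk1.

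Dkk1, which encodes the classical antagonist of Lrp5 and Lrp6, was dim too. It had 55.5, 61.8 and 44.4 in Zmpste24-/- cultures 1, 2 and 3, against 33.3, 32.8 and 40.9 in WT cultures 1, 2 and 3 (1420360_at). The groups did not overlap, and Dkk1 had the only one of the 14 tested probe sets of which this was so, where 2.22% of all tested probe sets were higher in Zmpste24-/- without overlap and 3.03% lower. The means were 53.9 ± 8.79 in Zmpste24-/- and 35.7 ± 4.51 in WT (SD, n = 3 each). The WT mean lay under 39.4, so only the Zmpste24-/- cultures brought this probe set past the filter. Its lack of overlap therefore cannot be read against the shares of all tested probe sets. The gap on the log2 scale was 0.43 (SE 0.21), which limma did not call (adjusted p = 1 unblocked, 0.656 blocked by replicate). Since log2(signal + 16) understates changes of dim genes, the pseudocount sets its size: the difference was 0.58 with 1 and 0.24 with 64. The second probe set of Dkk1, 1458232_at, lay below the filter, between 7.32 and 19.0 in Zmpste24-/- cultures and between 0.843 and 16.7 in WT cultures.

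Dkk2, which encodes a ligand of Lrp5 and Lrp6, went the other way. Its signals were 1812, 715 and 637 in Zmpste24-/- cultures 1, 2 and 3, against 2091, 798 and 909 in WT cultures 1, 2 and 3 (1420512_at). Zmpste24-/- was lower in every pair. Of the 14 tested probe sets 5 kept 1 direction in all 3 pairs, against 31.9% of all: Dkk2 was lower and 4 were higher, against 15.8% of all that were higher. The log2 difference was -0.29 (SE 0.51), which limma did not call (adjusted p = 0.491 blocked by replicate). The groups overlapped because culture 1 was the highest in each genotype.

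Dkk3 had nearly equal values in each pair. Its probe set 1417312_at had 3624, 812 and 1147 in Zmpste24-/- cultures 1, 2 and 3, against 3647, 839.5 and 1132 in WT cultures 1, 2 and 3. The log2 difference was -0.01, with an SE of 0.72 unblocked and 0.08 blocked by replicate. The other probe set, 1448669_at, differed by 0.01 (SE 0.83 and 0.09).

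**Figure D1:**
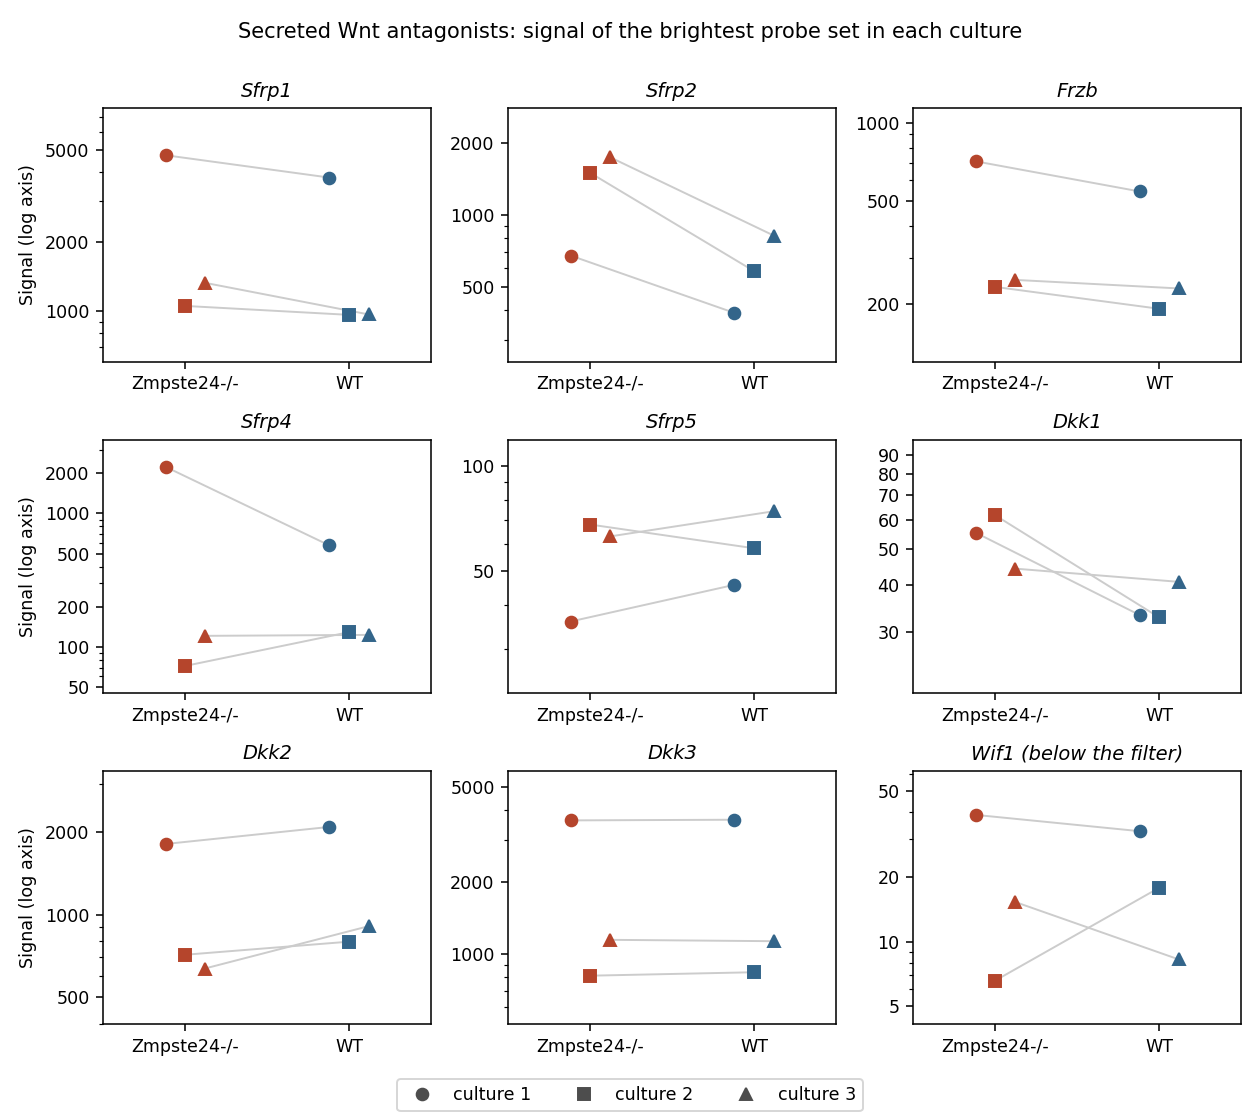
Signal on a log axis of the brightest probe set of each antagonist in the 6 cultures, with Zmpste24-/- on the left, WT on the right, symbols for the culture number and grey lines between cultures of the same number. Culture 1 lies above the others for Sfrp1, Frzb, Sfrp4, Dkk2 and Dkk3 in both genotypes, and Sfrp2 is higher in Zmpste24-/- along each line.

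**Figure D2:**
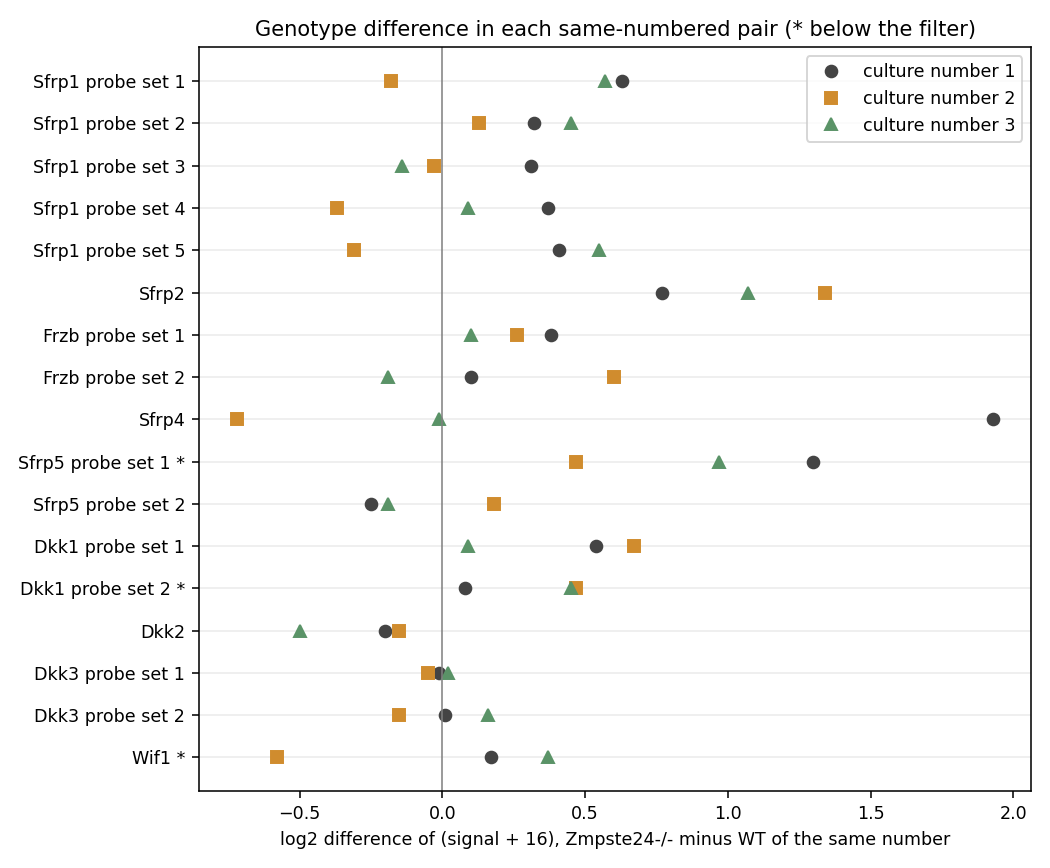
Log2 difference of (signal + 16), Zmpste24-/- minus WT, within each culture number for all 17 probe sets of the antagonists, where an asterisk marks those below the filter. Sfrp2 lies between 0.77 and 1.34 in the 3 numbers, while Sfrp4 runs from -0.72 to 1.93.

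The second comparison asks whether an antagonist differed between cultures of different number within genotype. It was made with limma's moderated F test over the numbers, in a fit with genotype and number. By Xist and Eif2s3y, number 1 also differed in sex from numbers 2 and 3 in WT, though not in Zmpste24-/-. Sfrp1, Frzb, Sfrp4, Dkk2 and Dkk3 were higher in number 1, Sfrp2 was lower there, and Sfrp5 and Dkk1 did not pass. Of the 14 tested probe sets, 12 passed an adjusted p under 0.05 (85.7%), against 41.6% of all tested probe sets. Of these, 11 were higher in number 1 than in the mean of numbers 2 and 3 (78.6% of the 14), against 22.4% of all, and 1 was lower, against 19.2% of all. These shares are larger among brighter probe sets. A filter of 60% kept 12 of the 14, and with it 10173 of 18015 probe sets were called, 5162 of them higher in number 1. Probe sets of 1 gene measure the same transcript, so the 11 stand for 5 genes. Both number 1 arrays lay above the other 4 for the same count of 11 probe sets, where 31.2% of all tested probe sets did so, and below them for 1, that of Sfrp5, where 27.2% did so.

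Sfrp4 had the widest gap of the antagonists on the log2 scale. Its number 1 cultures had 2237 in Zmpste24-/- and 576 in WT, against a mean of 111 ± 26.4 (SD, n = 4) in numbers 2 and 3, or 23.1 times the mean of the other cultures in Zmpste24-/- and 4.58 times in WT. The log2 difference was 3.21 (SE 0.44, limma adjusted p = 0.00180), and without 1 array it ran from 2.06, with Zmpste24-/- replicate 1 left out, to 4.36, with WT replicate 1 left out. The call held in each of these fits.

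Sfrp1 was 3.97 times as high in number 1 by its brightest probe set, with a mean of 4278 against 1076 ± 172 in the other 4 (SD). All 5 probe sets of Sfrp1 rose, with log2 differences from 1.28 to 2.24 and limma adjusted p from 1.4e-05 to 0.00118. The ratio of culture 1 to the others was much the same in both genotypes by the brightest probe set, 4.0 in Zmpste24-/- and 3.94 in WT.

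Frzb rose by 1.40 (SE 0.13) and 0.98 (SE 0.20) on its probe sets, with limma adjusted p of 2.3e-04 and 0.0145. Of these, the dimmer probe set lost its call without Zmpste24-/- replicate 1 (adjusted p = 0.0630) and without WT replicate 1 (0.0943). Dkk2 rose by 1.34 (SE 0.10, adjusted p = 1.1e-04), or 2.55-fold. Dkk3 rose by 1.89 (SE 0.08) and 2.21 (SE 0.10), with limma adjusted p of 1.2e-05 and 1.4e-05, or 3.70-fold and 4.71-fold. For Dkk3 the ratio of culture 1 to the others was 3.70 in both genotypes on the first probe set and 4.70 in Zmpste24-/- and 4.72 in WT on the other.

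Sfrp2 ran against this pattern. It was 532 on average in number 1, against 1158 ± 547 in the other 4 (SD), and fell by 1.02 on the log2 scale (SE 0.13, limma adjusted p = 9.3e-04). Within genotype, culture 1 had 0.418 times the mean of the other cultures in Zmpste24-/- and 0.556 times in WT. The difference of Sfrp5 was -0.53 (SE 0.24, adjusted p = 0.248) and that of Dkk1 was -0.02 (SE 0.28, adjusted p = 0.981). Number 2 minus number 3 ranged from -0.46 for Dkk3 (SE 0.09) to 0.07 for Dkk1 (SE 0.32) over the 14 probe sets.

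**Figure D3:**
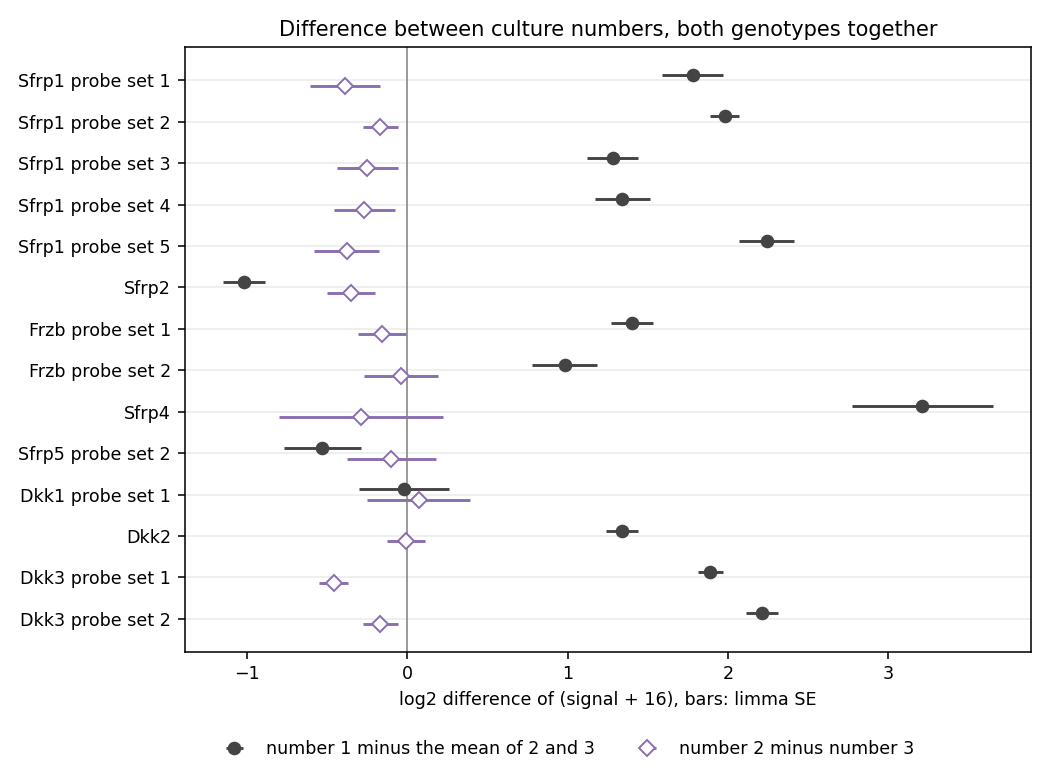
Log2 difference of (signal + 16) between culture numbers for the 14 tested probe sets of the antagonists, from the fit with genotype and number, with limma SE as bars. Filled points give number 1 minus the mean of numbers 2 and 3, from -1.02 for Sfrp2 to 3.21 for Sfrp4, and open diamonds number 2 minus number 3.

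Markers of other cells were read by the same F test, which called 22.4% of all tested probe sets higher and 19.2% lower in number 1. All 11 macrophage markers were higher in number 1. Of these, C1qa, C1qc and Ptprc passed the filter only through number 1, the group in which they were then called higher. Their calls therefore cannot be read against the shares of all tested probe sets. The list's summed signal was 14707 in Zmpste24-/- culture 1 and 7773 in WT culture 1, against 1495 to 2311 in the other 4. C1qa, a complement gene of macrophages, had 1008 in Zmpste24-/- culture 1 and 380.0 in WT culture 1, against 3.18 to 9.02 elsewhere, and no marker of the list was listed at 0. Of the skeletal muscle list only Acta1 and Des were tested, and both were lower in number 1, with a summed signal of the 6 markers of 535 and 782, against 2068 to 4275. Among the fibroblast markers, 5 of 10 were higher and 1 was lower, with sums of 116884 and 118540.3 in number 1, against 94764 to 107539. Dcn and Lum, which encode proteoglycans of connective tissue and were named after their values were seen, were 7.57 and 14.2 times as high in number 1. In the other lists, 1 of 3 tested endothelial markers and 2 of 4 epithelial markers were lower, 1 of 6 neural markers was higher, and of 7 cartilage and bone markers 1 was higher and 2 were lower, and nothing particular to these lists is read from such counts. The part of these cells in the pattern of the antagonists was not tested, and more cells of a type and more RNA per cell cannot be told apart in these arrays.

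Between the genotypes, no gene of the other Wnt pathway lists passed limma's adjusted p under 0.05, in either fit. Of the Wnt ligands 12 of 19 were tested, 3 with higher and 9 with lower values in Zmpste24-/- (median log2 difference -0.10). Wnt5b, Wnt5a, Wnt6 and Wnt10a differed by 0.43, 0.13, -0.21 and -0.26. Of receptors and co-receptors 10 were higher and 5 lower (median 0.09), with Fzd10 at 0.61, the Wnt5a receptor gene Ror1 at 0.44, Fzd1 at 0.19 and Lrp5 at -0.39. R-spondins are secreted proteins that strengthen Wnt signals through the Lgr receptors, and 4 of the 5 tested members of their list were higher (median 0.38). Among them Rspo2 and Rspo3 both differed by 0.40, Lgr4 by 0.33 and Lgr5 by -0.37, with limma adjusted p of 0.542, 0.427, 0.413 and 0.594 with the replicate block.

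The list of other Wnt inhibitors at the cell surface had 3 higher and 3 lower in Zmpste24-/- (median 0.06), among them Sostdc1 at 0.34, Trabd2b at 0.16, Igfbp4 at 0.15 and Znrf3 at -0.04. Of the transducers inside the cell 3 were higher and 9 lower (median -0.07), with Csnk1a1 at -0.07, Pygo2 at -0.15, Tcf7l1 at -0.16 and Bcl9 at -0.26. Genes that beta-catenin is known to switch on had 2 higher and 6 lower (median -0.08). Axin2, a feedback inhibitor widely used as a readout of Wnt signals, had 50.2, 71.5 and 82.9 in Zmpste24-/- cultures 1, 2 and 3, against 77.8, 106 and 68.0 in WT cultures 1, 2 and 3. Its log2 difference was -0.25 (SE 0.25), and Ccnd1, Cd44 and Nkd2 differed by -0.18, -0.10 and 0.21.

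Over culture number, the genes that passed were named because they passed, after their values were seen. R-spondins and their receptors moved with Sfrp1 and Dkk3: Rspo3 was 4.70 times, Lgr5 4.57 times, Rspo2 4.15 times and Lgr4 2.14 times as high in number 1, which made 4 of 5 tested (median log2 difference 2.06), against 22.4% of all tested probe sets called higher and 19.2% called lower. The counts of the other lists are read against the same shares, which are larger among brighter probe sets. Of the receptors 6 of 15 were higher (median 0.26), namely Fzd8, Fzd2, Fzd1, Lrp6, the Dkk1 receptor gene Kremen1 and Fzd5, with log2 differences of 1.50, 1.21, 1.10, 1.01, 0.81 and 0.53, and Fzd6 was lower (-0.71). Of the ligands Wnt16 was higher (1.78) and Wnt11 lower (-0.80), with a median of 0.10. Wnt16 passed the filter only through number 1, with 106 in Zmpste24-/- and 169 in WT there, against 10.0 to 50.7 elsewhere. Its call therefore cannot be read against those shares. Of the other inhibitors Trabd2b and Igfbp4 were higher and Apcdd1 lower (median 0.31), and of the transducers Dvl1 was higher (median 0.03). Of the beta-catenin targets Ccnd1 was higher (0.49) while Myc (-1.36) and Cd44 (-0.71) were lower (median -0.25), and Axin2 did not pass (-0.30, adjusted p = 0.527). The median was 1.37 for the 8 antagonists and 0.04 over all tested probe sets.

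**Figure D4:**
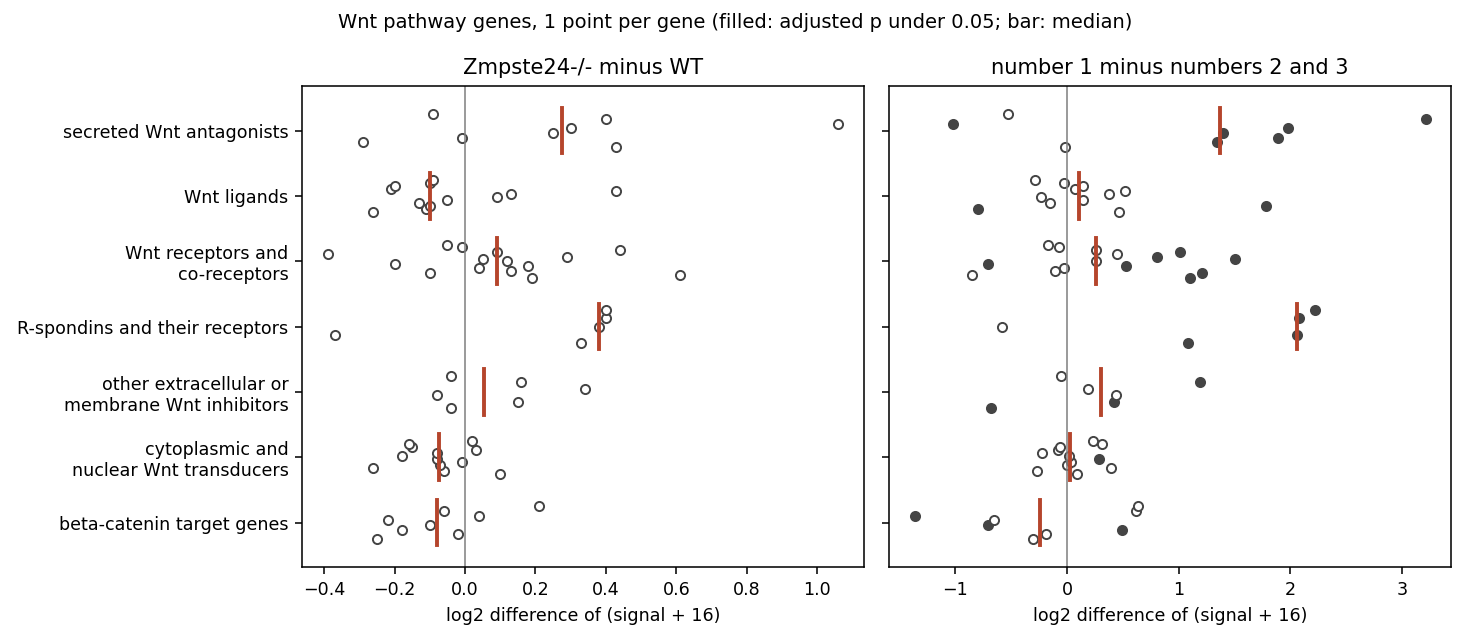
Log2 difference of (signal + 16) for the brightest probe set of each tested gene in the antagonist list and 6 other Wnt lists, with Zmpste24-/- minus WT on the left and number 1 minus numbers 2 and 3 on the right. Filled points passed limma's adjusted p under 0.05 and bars are medians; no point passed on the left, and the medians of the antagonists (1.37) and the R-spondin list (2.06) lie to the right of the other medians in the right panel.

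The genes whose pattern over the 6 arrays was most like that of each antagonist were found by Pearson's r on the log2 scale among 12446 other named genes. For Sfrp1 these were Wdr78 (r = 0.9997), Klhl13 and Dnajb14, and for Dkk3 Triqk (0.999), Klhl20 and Tmem101. For Frzb they were Mmp13 (0.999), Adcy6 and Plod1, and Mmp13 had 4297, 102 and 103 in Zmpste24-/- cultures 1, 2 and 3, against 1596, 46.6 and 100.1 in WT cultures 1, 2 and 3. For Dkk2 they were Ppt2 (0.998), Epn2 and Slc8b1. For Sfrp4 they were Fbxo15 (0.997), Pqlc3 and the macrophage marker Csf1r, which had 1168, 270.3 and 303 in Zmpste24-/- cultures, against 608, 321 and 340.4 in WT cultures. For Sfrp2 they were Abl1 (0.991), Mbnl1 and Gypc, for Sfrp5 Coq10b (0.997), Sipa1l1 and Dync1li1, and for Dkk1 Cacnb1 (0.946), Zbtb3 and Slc26a7. These r are the highest among 12446 genes over only 6 arrays, and r does not give the size of a change. On the log2 scale Mmp13 ranged over 6.11 and Abl1 over 0.24. The gap between number 1 and the other arrays enters the values of the antagonists that have it, and Dkk1 does not. Among the antagonists themselves, Sfrp1 correlated with Frzb at 0.99, with Dkk3 at 0.98, with Sfrp4 at 0.95 and with Dkk2 at 0.91, and with Sfrp2 at -0.52 and Sfrp5 at -0.93.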

How the data were processed

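RNA of 3 Zmpste24-/- and 3 WT cultures was measured on 1 array each. The deposited table holds 1 intensity for each probe set on a linear scale. Per the submitters' processing notes the authors used GCOS (Affymetrix software); neither version nor settings were stated. A trimmed mean (2% off each end) of 500.0 on every array shows that the values had been scaled, so a change in total RNA per cell cannot be seen. Signal medians were 56.1 to 70.3. No detection calls were used, so a dim probe set cannot be told from background, and the number of arrays limits the precision.

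Of 45101 probe sets 64 controls were left out. The platform annotation gives 1 symbol for 34945 probe sets, several for 932 and none for 9160; 34741 of the 34945 were matched by gene identifier to a RefSeq table (GRCm38.p6) and 0 symbols changed. Values were analysed as log2(signal + 16). The dimmest 40% by the mean of the 6 arrays (under 39.4) were left out, and 27022 were tested with limma 3.58.1 (R 4.3.3); eBayes used an intensity trend, and p-values were adjusted by Benjamini-Hochberg over all of them. An SE is limma's. The fits were checked on simulated data. Figures were drawn with matplotlib 3.10.9.

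Deviations from the group means correlated between cultures of the same number at 0.83, 0.59 and 0.57, all over 0.1, so the numbers were treated as pairs in the fit with the replicate block. Cultures 2 and 3 of opposite genotype correlated at 0.55 and 0.49 as well, so the data set number 1 apart more than they tell 2 from 3. The brightest single-symbol probe set stood for each pathway gene, and of each list those past the threshold and up to 4 more by p with the replicate block were named. For each antagonist 3 genes of like pattern were named. The antagonists and lists were chosen with earlier results of these data known. Alternatives were pseudocounts of 1 and 64, leaving out no probe sets or the dimmest 60%, array weights, fits without the intensity trend, normalization by quantiles or by medians, a threshold of 0.1, replicates 2 and 3 alone, and each array left out. The interaction, the block with number 1 as one level, and the alternatives for single probe sets over number were added after the data were seen.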

Additional observations from a re-analysis of the deposited data

How the results depend on the processing

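Between the genotypes limma without a block called 0 of 27022 probe sets (349 at an unadjusted p under 0.05), with array weights 1, with the replicate block 5, with number 1 as one level of that block 11, with replicates 2 and 3 alone 20, and with 1 array left out 0 to 4. Of the antagonists Sfrp2 was called with replicates 2 and 3 alone, a count of 1. At 0.05 the replicate block changed no call of theirs, while at a threshold of 0.1 Sfrp2 passes in both blocked fits (adjusted p = 0.0750, and 0.0705 with number 1 as one level). With the block the count of 5 became 2 with no filter, 14 with median centring, 0 with no intensity trend and 11 at a threshold of 0.1. None of the other genotype differences of the antagonists passed. The choice of filter, the intensity trend, the threshold and the blocks leave the differences themselves unchanged, so those alternatives could not reverse a sign. Of all 250 alternative values, 34 had the opposite sign. With array weights these were Sfrp4 (-0.08), Sfrp1 1438620_x_at (-0.02) and Dkk3 1417312_at (0.12), with median centring Dkk3 1417312_at (0.00248), and with replicates 2 and 3 alone Sfrp4 (-0.37) and Sfrp1 1438620_x_at (-0.09) and 1448395_at (-0.14). Leaving out 1 array gives number 1 unequal weight in the genotypes, and the differences then ranged from -0.33 to 0.86, -0.37 to 0.95, -0.45 to 0.41, -0.50 to 0.42 and -0.58 to 0.91 for Sfrp1 1416594_at, 1428136_at, 1438620_x_at, 1448395_at and 1460187_at, from -0.25 to 0.68 and -0.14 to 0.51 for Frzb, from -1.06 to 1.28 for Sfrp4, from -0.22 to 0.13 for Sfrp5, from -0.75 to 0.14 for Dkk2, and from -0.64 to 0.62 and -0.73 to 0.75 for Dkk3. Over culture number 11253 probe sets were called, 7727 with no intensity trend and 8345 to 10815 with 1 array left out. The calls of the antagonists held in each alternative except for Frzb 1448424_at (adjusted p = 0.0504 with no filter, 0.0514 with no intensity trend), and the uncalled difference of Dkk1 ran from -0.15 to 0.11 with 1 array left out. A filter of 60% left Sfrp5 and Dkk1 untested. The cause of these changes was not tested.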
